A study of Mus musculus with 6 samples.

Results

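Chemokines are small secreted proteins that draw migrating leukocytes along a gradient, and they act through receptors with several membrane-spanning segments that signal through inhibitory G proteins. CXC and CC chemokines are named for the spacing of their first cysteines, C and CX3C are small families of their own, and the atypical receptors bind and clear chemokines without that signal. Epithelia, stroma and immune cells each make their own set, and in a salivary gland such ligands guide plasma cells, lymphocytes, macrophages and granulocytes into the tissue. The genes of this system were taken by symbol: every gene on the array with a Ccl, Cxcl, Ccr or Cxcr symbol and a number, together with Xcl1, Xcr1, Cx3cl1, Cx3cr1 and the Ackr genes. This gave 60 genes of the 19505 measured by name, of which 38 were ligands, 18 were receptors and 4 were atypical receptors.

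RNA of whole submandibular salivary glands (SGs) was compared between 3 BALB/c female mice after bilateral removal of the ovaries (OVX) and 3 BALB/c female mice after sham surgery (Cont). Mice had surgery at 6 weeks of age, and their glands were collected when they were 14 weeks old, 8 weeks after it, with 1 array for each mouse. The labels name no other allele or agent for either group. The values were log2 intensities from Clariom S arrays, on which the probes of a gene are combined into a probe set, and the change of a gene is OVX minus Cont on this scale.

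The labelled tissue was recognizable from its markers. Egf, the growth factor of the granular ducts, read 12.39, 12.52 and 12.38 in OVX-SGs and 8.56, 8.13 and 8.71 in Cont. Summed over 13 measured duct markers, the linear signal lay between 26624 and 27105 in OVX-SGs and between 11969 and 12775 in Cont, and 7 of the 13 rose. Egf and the kallikreins Klk1b24, Klk1b27 and Klk1b1 of the granular ducts were then left out. The other 9 duct markers summed to between 10245 and 10549 in OVX-SGs and between 10510 and 10904 in Cont. The rise of the sum thus rested on the 4 genes left out. Of the other 9, Scnn1b, Cftr and Krt7 rose, by 1.17, 0.96 and 0.79 (limma adjusted p = 0.00173, 0.00649 and 0.0093). Summed over 13 acinar markers, the linear signal lay between 23674 and 26799 in OVX-SGs and between 32192 and 33119 in Cont. Of these 13 markers 5 fell, with 2 falling without OVX replicate 1 and 3 without OVX replicate 2 or Cont replicate 2. Smgc, a secreted salivary protein, stood on this list but is not confined to acini. It fell by 7.15 on the log2 scale and carried most of the difference in the acinar sum. Without Smgc the sum lay between 23656 and 26743 in OVX-SGs and between 27240 and 27777 in Cont. Bpifa2, a listed acinar marker that other salivary glands also make, had a change of 1.06 that did not pass (limma adjusted p = 0.0583). These shifts of epithelial markers run beside every result given here, and their part in the chemokine values was not tested. In whole tissue, fewer cells of a type and less RNA per cell cannot be told apart. Precision is limited by the number of arrays, 3 in each group. No array stood apart from its group along the first principal component, which placed OVX arrays between 23.4 and 25.3 and Cont arrays between -28.5 and -20.3.

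Of the chemokine system, 3 genes passed the test after OVX, and all were CXC ligands that epithelia can make. Which cells of the whole gland made them was not tested. Cxcl17, Cxcl16 and Cxcl14 rose in OVX-SGs, and no member fell. At an adjusted p under 0.05 from limma, with Benjamini-Hochberg adjustment over all named probe sets, 3.63% of all genes were called, with 2.57% higher and 1.07% lower in OVX-SGs. Among the members, 3 of 60 (5%) were higher and 0 of 60 were lower. At an unadjusted p under 0.05 from limma, 6 members were higher, where 8.24% of all genes were, and 3 were lower, where 7.59% of all genes were. A fold of 1.5 or more together with an unadjusted p of 0.05 or less was met by the same 3 ligands in the higher direction, as by 3.28% of all genes, and by 0 members in the lower direction, as by 1.71% of all genes. The median change was 0.01 for the 60 members and -0.02 for all genes. Of the members, 30 had a positive and 30 a negative change, and the 57 that did not pass lay between -0.53 and 0.60.

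**Figure D1:**
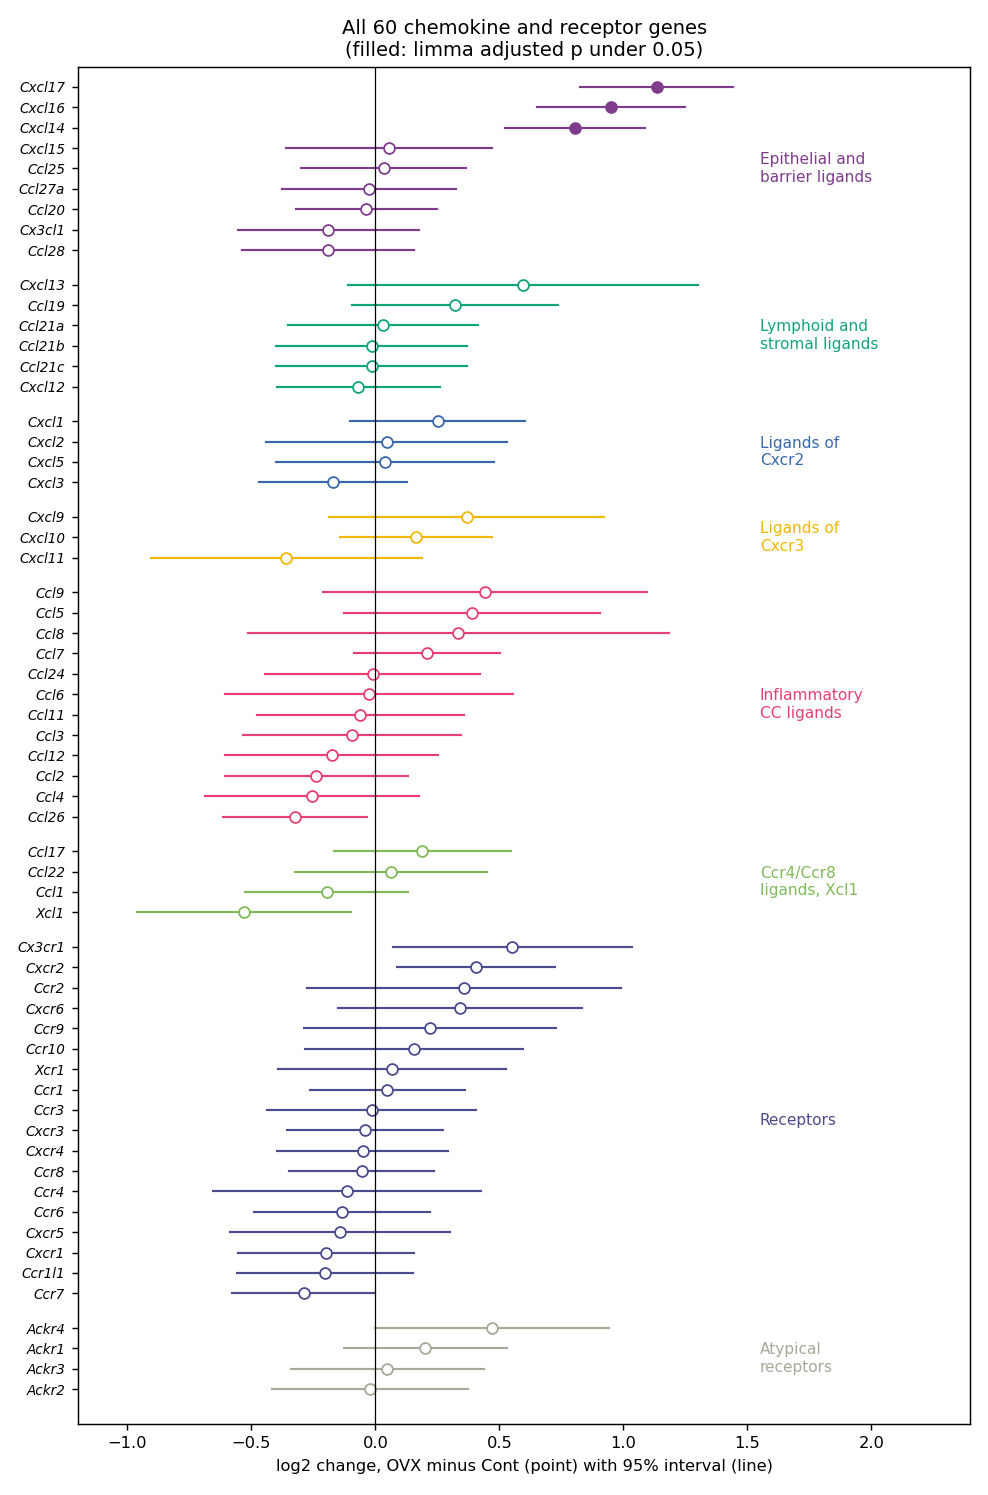
Change of each of the 60 genes (x axis, log2, OVX minus Cont), with the 95% interval of limma as a line and genes in rows grouped by role. The filled points are Cxcl17, Cxcl16 and Cxcl14, whose intervals lie between 0.52 and 1.44, and all other points are open and lie between -0.53 and 0.60.

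Cxcl17, a chemokine of mucosal epithelia that draws myeloid cells, had the largest change. Its log2 signal was 9.15, 9.42 and 9.38 in OVX-SGs, against 8.31, 8.14 and 8.11 in Cont. All OVX arrays lay above all Cont arrays, as they did for 10.7% of all genes and 5 of the 60 members. In either direction the groups did not overlap in 7 members and in 21.4% of all genes. The means were 9.32 ± 0.15 in OVX-SGs and 8.18 ± 0.11 in Cont (SD, n = 3 mice each), a change of 1.13 (standard error 0.14, limma adjusted p = 0.000866). This was 2.20-fold, with a 95% interval of 1.77 to 2.72.

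Cxcl16 is made as a membrane-bound protein that also takes up oxidized lipoprotein, and its shed form draws T and natural killer T cells. It read 8.07, 7.96 and 8.00 in OVX-SGs, against 6.90, 7.18 and 7.10 in Cont. The OVX arrays agreed within a narrow range and stood well above every Cont array. Its mean was 8.01 ± 0.05 in OVX-SGs and 7.06 ± 0.14 in Cont (SD, n = 3 each). The change was 0.95 (standard error 0.14, limma adjusted p = 0.00239), or 1.93-fold with an interval of 1.57 to 2.38.

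Cxcl14, a chemokine made at rest by skin and mucosal epithelium, read 7.13, 6.96 and 7.06 in OVX-SGs, against 6.28, 6.23 and 6.23 in Cont. Here the Cont arrays were nearly identical and the groups did not overlap. The means of 7.05 ± 0.08 in OVX-SGs and 6.25 ± 0.03 in Cont (SD, n = 3 each) gave a change of 0.80 (standard error 0.13, limma adjusted p = 0.00488), which was 1.75-fold with an interval of 1.44 to 2.12.

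The calls depended on the test. By the methods' t-test, which takes its spread from the arrays of a single gene, Cxcl14 had an adjusted p of 0.0447, while Cxcl16 and Cxcl17 had 0.063 each and did not pass. In the form of that test with unequal variances all 3 calls were lost, with an adjusted p of 0.193 for Cxcl14, 0.252 for Cxcl16 and 0.151 for Cxcl17. Of the 21 genes of the cell marker and pathway lists that passed by limma, 3 passed by the methods' t-test (Egf, Klk1b27 and Smgc) and 0 by the form with unequal variances. The list calls given here therefore rest on limma.

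**Figure D2:**
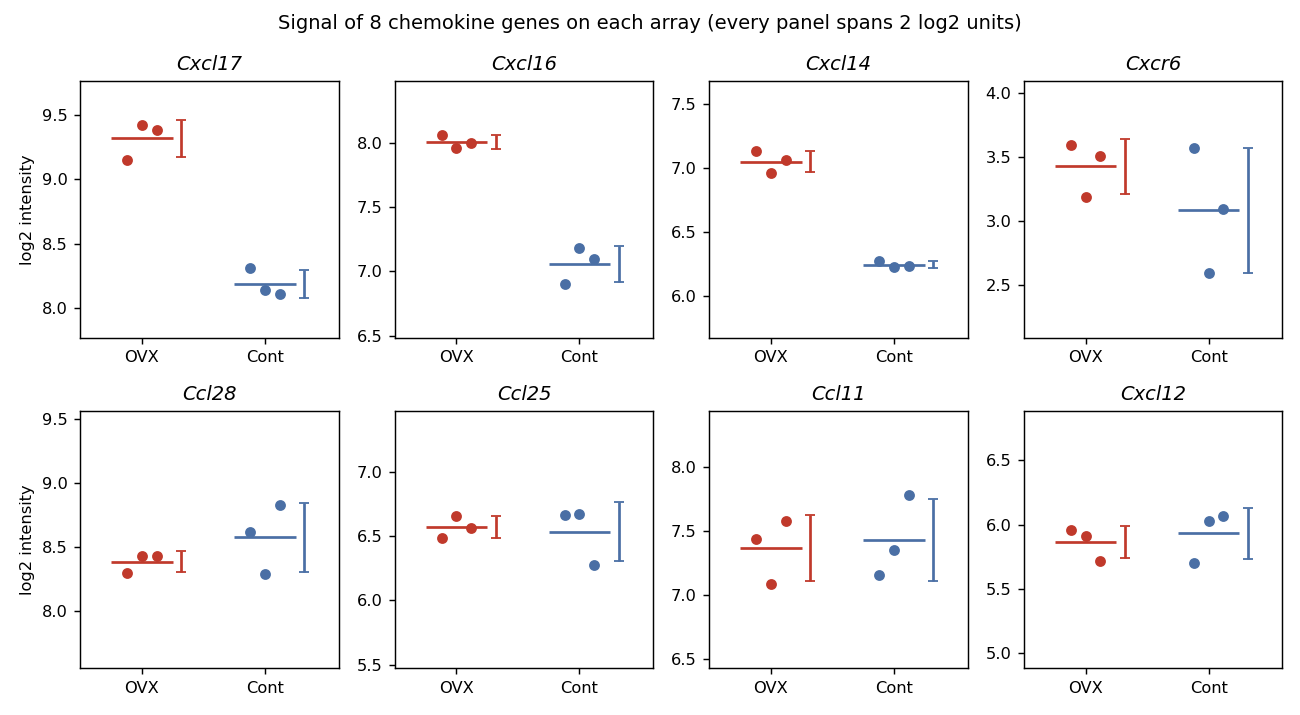
Log2 intensity (y axis) of 8 genes on each array, with OVX at the left and Cont at the right of each panel, points for single mice, a line at the mean and a bar for the SD. In the panels of Cxcl17, Cxcl16 and Cxcl14 all OVX points lie above all Cont points, while in those of Cxcr6, Ccl28, Ccl25, Ccl11 and Cxcl12 the groups overlap.

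The promoter of Cxcl14 is shown because Cxcl14 is 1 of the 3 risen ligands and because the ovaries, removed in OVX mice, are a source of oestrogen. Its last 250 bases, from RefSeq, before the start site lie at chr13:56296552-56296801 on the minus strand of GRCm38.p6, with capitals on the half-site of the oestrogen response element, GGTCA, which reads TGACC on the gene's strand.
Cxcl14: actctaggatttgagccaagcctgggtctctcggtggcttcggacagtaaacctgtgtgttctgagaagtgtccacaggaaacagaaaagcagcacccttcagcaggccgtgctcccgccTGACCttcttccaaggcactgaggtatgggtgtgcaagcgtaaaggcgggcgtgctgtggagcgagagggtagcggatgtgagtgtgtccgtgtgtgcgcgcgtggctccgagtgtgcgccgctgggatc
The half-site lies 130 to 126 bases before the start site. It was searched on both strands of the promoter and occurred in 40.5% of 32851 promoters. Among the 49 member promoters it occurred in 27, which belong to 25 of the 45 member genes matched. Among the 25 were Cxcl14 and also Ccl25, Ccl28, Ccl20 and Ccl27a, epithelial ligands that did not pass. The promoters of Cxcl16 and Cxcl17 were not among those matched, so they were not searched for any site. The full palindromic element, an inverted repeat of the half-site with 3 bases between, occurred in 0.07% of all promoters and in 0 of the 49 member promoters.

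In 38 ligand and receptor pairs both partners were on the array. Cxcr6, the receptor of Cxcl16 on activated T cells and natural killer T cells, read 3.59, 3.19 and 3.51 in OVX-SGs, against 3.57, 2.59 and 3.09 in Cont. The groups overlapped, and Cxcr6 was dimmer than the lower quartile on all arrays, where a signal cannot be told from background. Its change was 0.34 (standard error 0.22, 95% interval -0.15 to 0.83, limma adjusted p = 0.509). It was 0.58 without Cont replicate 1 and 0.10 without Cont replicate 2. Of the 38 pairs, the ligand passed in 1, that of Cxcl16 and Cxcr6, and the receptor in 0. Cxcl14 and Cxcl17 have no agreed receptor among the members and enter no pair.

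**Figure D3:**
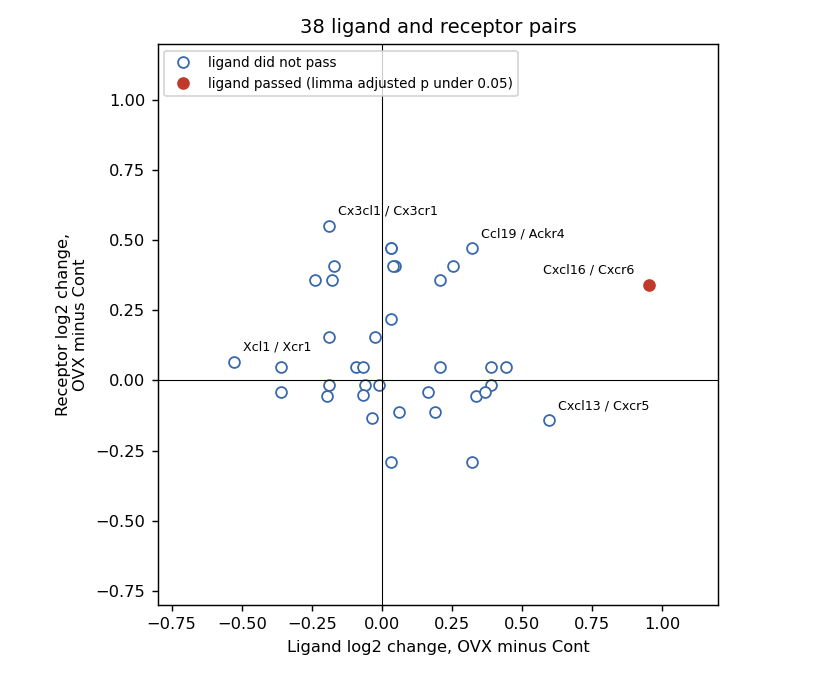
Log2 change of the receptor (y axis) against that of its ligand (x axis), both OVX minus Cont, for 38 pairs, of which several share a ligand or a receptor. The filled point is Cxcl16 with Cxcr6, at 0.95 and 0.34, and the Cx3cl1 pair lies highest, with a receptor change of 0.55 and a ligand change of -0.19.

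Other ligands of gland and gut epithelium did not pass. Ccl28, which salivary epithelium secretes and which draws plasma cells that make IgA, read 8.30, 8.43 and 8.43 in OVX-SGs, against 8.62, 8.29 and 8.83 in Cont. The groups overlapped, and the change was -0.19 (standard error 0.16, 95% interval -0.54 to 0.16, limma adjusted p = 0.614). Its receptor Ccr10 had a change of 0.15 (limma adjusted p = 0.766). In 9 measured plasma cell markers, 0 passed, and their summed linear signal lay between 2952 and 3652 in OVX-SGs and between 3208 and 3445 in Cont. The list holds genes that secretory epithelium also expresses, such as Pigr and Xbp1, so this sum does not measure plasma cells alone. Derl3 had means of 8.31 in OVX-SGs and 8.64 in Cont. Mzb1 and Tnfrsf17 were dimmer, at 3.79 and 4.38 in OVX-SGs and 3.36 and 4.07 in Cont, and added little to the sum.

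Ccl25, the gut and thymus ligand of Ccr9, read 6.49, 6.66 and 6.56 in OVX-SGs, against 6.66, 6.67 and 6.27 in Cont. The Cont arrays enclosed the OVX arrays, and the interval of its change ran from -0.30 to 0.36. Cx3cl1, a membrane-bound ligand of epithelium and endothelium, changed by -0.19 (limma adjusted p = 0.632). Ccl20, the ligand of Ccr6 at mucosal surfaces, and Ccl27a, a skin ligand of Ccr10, changed by -0.04 and -0.03. Cxcl15, a lung ligand of mice, changed by 0.05 and was dimmer than the lower quartile on all arrays. Of these 9 ligands of epithelia and barriers, 3 rose and 0 fell, with a median of 0.03. This and the other groupings by role were drawn up after the values were seen and carry no test.

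Ligands that hold lymphocytes in lymphoid tissue and stroma gave no call, with 0 of 6 passing and a median of 0.01. Cxcl13, which draws B cells into follicles, read 4.17, 4.12 and 5.40 in OVX-SGs, against 3.73, 3.68 and 4.48 in Cont. The array OVX 3 stood high among OVX arrays and Cont 3 among Cont arrays, so that the groups overlapped. The change was 0.60 (standard error 0.32, 95% interval -0.11 to 1.30, limma adjusted p = 0.411). It was 0.18 without OVX replicate 3 and 0.86 without Cont replicate 3. Its receptor Cxcr5 changed by -0.14 (limma adjusted p = 0.792), and of 9 measured B cell markers 0 passed, with a summed linear signal of 159 to 176 in OVX-SGs and 171 to 180 in Cont.

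Ccl21a, which with Ccl19 guides cells bearing Ccr7, read 6.14, 6.43 and 6.19 in OVX-SGs, against 6.05, 6.58 and 6.03 in Cont. The OVX values fell within the range of the Cont values, and the change was 0.03 (standard error 0.17, limma adjusted p = 0.953). Its near copies Ccl21b and Ccl21c had identical values on every array, with a change of -0.01, and count as 1 measurement, since these genes may share probes. Cxcl12, the stromal ligand of Cxcr4, changed by -0.07 (95% interval -0.40 to 0.26, limma adjusted p = 0.875). Its receptors Cxcr4 and Ackr3 changed by -0.05 and 0.05.

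Ccr7, which brings dendritic cells and naive T cells to lymph nodes, read 5.93, 6.03 and 5.82 in OVX-SGs, against 6.20, 6.27 and 6.18 in Cont. All its OVX arrays lay below all Cont arrays, a pattern shared by Ccl26 among the members and by 10.6% of all genes. The change was -0.29 (standard error 0.13, limma adjusted p = 0.313). Ackr4, the atypical receptor that clears Ccl19, Ccl21 and Ccl25, read 3.86, 4.52 and 3.78 in OVX-SGs, against 3.57, 3.89 and 3.29 in Cont. The groups overlapped by a single Cont array, and the change was 0.47 (standard error 0.21, limma adjusted p = 0.316), or 0.24 without OVX replicate 2. Of the 4 atypical receptors, 0 passed, and their changes lay between -0.02 and 0.47. Ackr1, which binds many chemokines on venules and red cells, changed by 0.20 (limma adjusted p = 0.573) and was dimmer than the lower quartile on all arrays. Ackr2, which clears inflammatory CC ligands, changed by -0.02 (limma adjusted p = 0.97).

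The ligands of Cxcr2, which call neutrophils, gave no call in 4 genes. Cxcl3 read 6.32, 6.51 and 6.34 in OVX-SGs, against 6.57, 6.44 and 6.66 in Cont, with overlapping groups and a change of -0.17 (standard error 0.14, limma adjusted p = 0.602). Cxcl1 changed by 0.25 (limma adjusted p = 0.495), and Cxcl2 and Cxcl5 by 0.05 and 0.04. Cxcr2 itself read 4.30, 4.71 and 4.47 in OVX-SGs, against 4.11, 4.07 and 4.09 in Cont. Every OVX array lay above the tightly grouped Cont arrays, but the change of 0.41 had a limma adjusted p of 0.185 (standard error 0.14, 95% interval 0.09 to 0.72), and Cxcr2 was dimmer than the median on all arrays. Of 13 granulocyte markers 0 passed, with a summed linear signal of 215 to 243 in OVX-SGs and 232 to 256 in Cont. With limma's array weights 1 of them, S100a9, was lower (adjusted p = 0.0454).

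The promoters of Cxcl1, Cxcl2 and Cxcl3 are shown because they carry the same binding sequence of NF-kB, the inflammatory transcription factor. Each line gives 60 bases on the plus strand of GRCm38.p6 from RefSeq, with the site in capitals, at chr5:90891149-90891208 for Cxcl1, at chr5:90903777-90903836 for Cxcl2 and at chr5:90786003-90786062 for Cxcl3.
Cxcl1: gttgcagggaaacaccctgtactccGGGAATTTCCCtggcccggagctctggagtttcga
Cxcl2: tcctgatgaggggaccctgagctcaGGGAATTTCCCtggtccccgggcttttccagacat
Cxcl3: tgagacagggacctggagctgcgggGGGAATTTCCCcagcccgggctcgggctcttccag
The site searched was GGGA, any 2 bases and TTCC, on both strands, and the 11 capitals cover overlapping matches on both. It occurred in 1.47% of all promoters and in 6 of the 49 member promoters. These belong to 6 of the 45 matched member genes, which also included Cxcl10, Ccl1 and Ccr3. None of the 6 passed. Among 32 genes of NF-kB and the inflammatory cytokines, 1 rose, 0 fell and the median change was -0.03. The count of higher genes was 2 without Cont replicate 2, and Rel and Il33 fell with the dimmest 30% of probe sets dropped (adjusted p = 0.0426 and 0.0421). The gene that rose was Birc3, an inhibitor of cell death and an NF-kB target, at 7.68, 7.44 and 7.74 in OVX-SGs and 6.78, 6.88 and 6.39 in Cont (change 0.94, standard error 0.16, limma adjusted p = 0.00862, against 0.155 by the methods' t-test).

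Ligands of Cxcr3, which interferon induces and which draw effector T cells, had changes of either sign and did not pass. Cxcl9 changed by 0.37 (limma adjusted p = 0.53), Cxcl10 by 0.16 (limma adjusted p = 0.62) and Cxcl11 by -0.36 (limma adjusted p = 0.539). In the reference genome, that of C57BL/6J, Cxcl11 is annotated as a transcribed pseudogene. Cxcr3 changed by -0.04, and of 16 T and natural killer cell markers 0 passed, with a summed linear signal of 336 to 391 in OVX-SGs and 352 to 431 in Cont. Without Cont replicate 1, 1 of the 16 was lower.

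Xcl1, which T and natural killer cells release to draw cross-presenting dendritic cells, had the most negative change of all members. It read 3.92, 4.09 and 4.71 in OVX-SGs, against 4.63, 4.80 and 4.89 in Cont, and was dimmer than the median on all arrays. Only OVX 3 reached into the Cont range, and the change was -0.53 (standard error 0.20, 95% interval -0.96 to -0.10, limma adjusted p = 0.203). Without OVX replicate 3 the change was -0.76 and passed (limma adjusted p = 0.0429). Its receptor Xcr1 changed by 0.07 (limma adjusted p = 0.913). Ccl17 and Ccl22, dendritic cell ligands that draw T cells through Ccr4, changed by 0.19 and 0.06 (limma adjusted p = 0.625 and 0.906), and Ccr4 by -0.11. Ccl1, a ligand of Ccr8, changed by -0.20 (limma adjusted p = 0.583), and Ccr8 by -0.06. Of 10 dendritic cell markers 0 passed, with a summed linear signal of 654 to 952 in OVX-SGs and 588 to 796 in Cont.

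The 12 inflammatory CC ligands, which include monocyte and macrophage attractants, gave 0 calls and had a median of -0.04. Ccl9 read 5.60, 5.73 and 6.31 in OVX-SGs, against 4.72, 5.52 and 6.07 in Cont, a change of 0.44 (standard error 0.30, limma adjusted p = 0.522). Ccl5, which T cells release and which also draws macrophages, read 5.14, 5.30 and 5.91 in OVX-SGs, against 4.62, 5.43 and 5.12 in Cont, a change of 0.39 (standard error 0.24, limma adjusted p = 0.469). In both genes OVX 3 was the highest array and the groups overlapped. The change of Ccl9 was 0.09 without Cont replicate 1 and 0.76 without Cont replicate 3, and that of Ccl5 was 0.16 without OVX replicate 3. Ccl6 read 6.04, 6.31 and 6.49 in OVX-SGs, against 5.91, 5.97 and 7.04 in Cont, and its single highest array was Cont 3. Its change was -0.02 (standard error 0.26, limma adjusted p = 0.977).

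Ccl11, or eotaxin, which draws eosinophils, read 7.44, 7.08 and 7.58 in OVX-SGs, against 7.15, 7.35 and 7.78 in Cont. The ranges overlapped almost fully, and the interval of its change ran from -0.48 to 0.36. Ccl26, another eosinophil ligand, read 3.45, 3.54 and 3.59 in OVX-SGs, against 3.79, 3.79 and 3.97 in Cont, with no overlap, and its change of -0.32 did not pass (limma adjusted p = 0.255). Ccl24, which also acts on eosinophils through Ccr3, changed by -0.01 (limma adjusted p = 0.986), and Ccr3 by -0.02. Ccl2, the chief monocyte attractant, changed by -0.24 (limma adjusted p = 0.543), and its receptor Ccr2 by 0.36 (limma adjusted p = 0.604). Ccl7, another ligand of Ccr2, read 5.18, 5.43 and 5.32 in OVX-SGs, against 5.04, 5.13 and 5.13 in Cont. Its groups did not overlap, but the change was 0.21 and did not pass (limma adjusted p = 0.499). Ccl12, a further ligand of Ccr2 in mice, changed by -0.18 (limma adjusted p = 0.72). Ccl3 and Ccl4, which macrophages and T cells release on activation, changed by -0.09 and -0.26 (limma adjusted p = 0.872 and 0.585).

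Cx3cr1, the Cx3cl1 receptor of macrophages and monocytes, read 5.12, 4.80 and 5.79 in OVX-SGs, against 4.68, 4.56 and 4.82 in Cont. The OVX values ran higher, with OVX 3 far above the rest and OVX 2 inside the Cont range. Its change was 0.55 (standard error 0.22, 95% interval 0.07 to 1.03, limma adjusted p = 0.24), or 0.28 without OVX replicate 3. Of 14 macrophage and monocyte markers 2 rose and 0 fell, with a summed linear signal of 895 to 1181 in OVX-SGs and 726 to 958 in Cont. The 2 were Mertk, a receptor for the uptake of dying cells, with a change of 1.41 (standard error 0.16, limma adjusted p = 0.000384), and Cd14, a co-receptor for bacterial lipopolysaccharide, with 1.04 (standard error 0.16, limma adjusted p = 0.00367). By the methods' t-test neither passed, with an adjusted p of 0.079 for Mertk and 0.128 for Cd14. The part of these markers in the values of Cx3cr1 was not tested.

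The 18 receptors gave 0 calls in either direction, with a median of -0.03 and changes between -0.29 and 0.55. Among those not yet described, Ccr1, a myeloid receptor of Ccl3, Ccl5 and Ccl9, changed by 0.05. Ccr6, the receptor of Ccl20, changed by -0.13, and Ccr9, the receptor of Ccl25, by 0.22. Cxcr1, the partner of Cxcr2, changed by -0.20, as did Ccr1l1, a mouse gene close to Ccr1. The limma adjusted p of these 5 lay between 0.599 and 0.908. The signals of receptors were mostly dim. On every array, 15 of the 18 receptors and 14 of the 38 ligands lay under the array's median, and 7 receptors and 3 ligands lay under its lower quartile. The 7 receptors were Cxcr6, Ccr1, Ccr1l1, Ccr3, Ccr4, Ccr8 and Ccr9, and the 3 ligands were Ccl19, Cxcl5 and Cxcl15. Of the 4 atypical receptors, 3 lay under the median and 1, Ackr1, under the lower quartile. Signals this far down cannot be told from background.

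**Figure D4:**
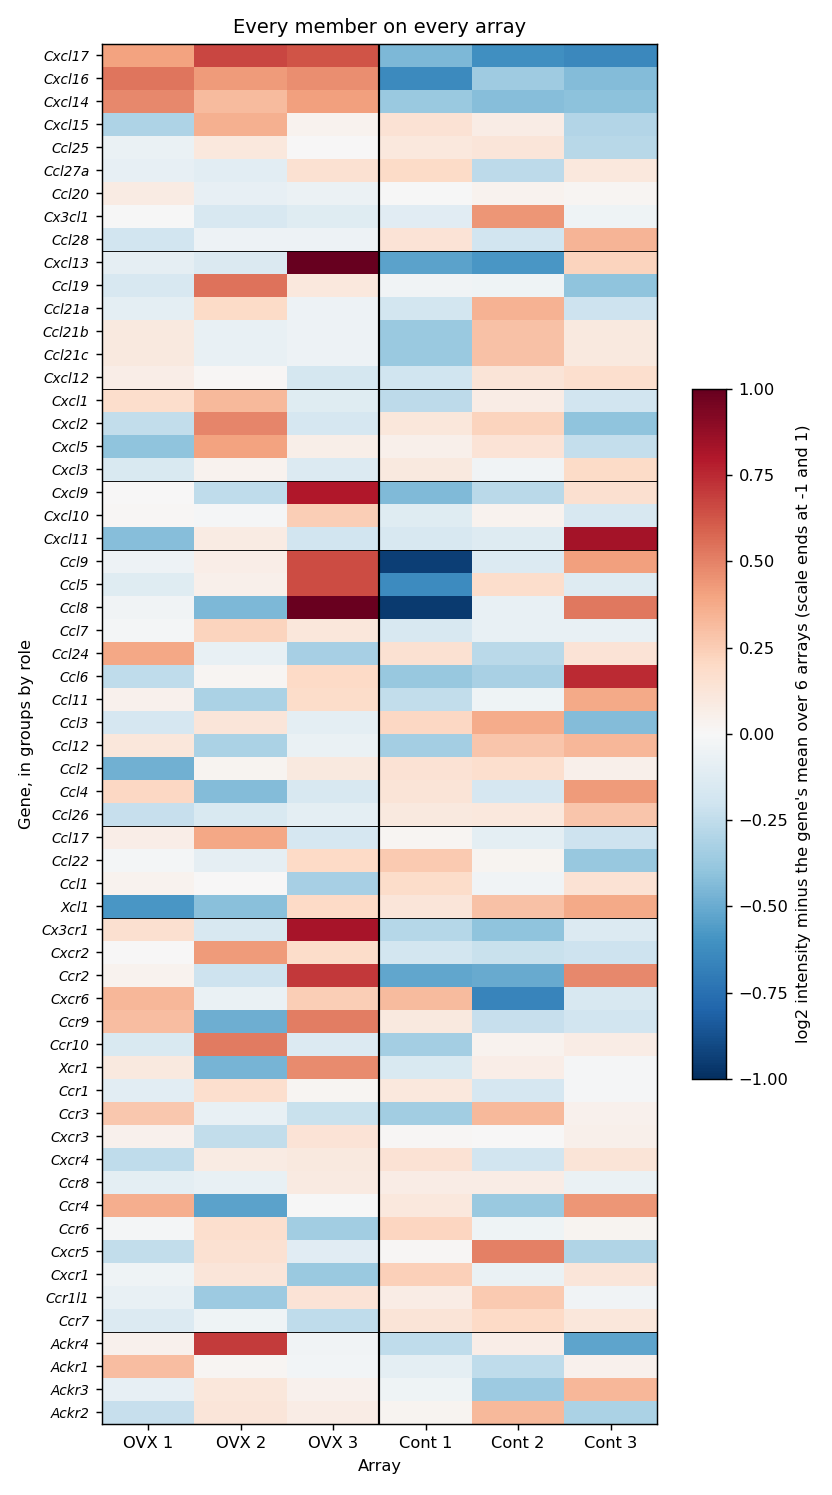
Log2 intensity of each of the 60 genes on each array after subtraction of the gene's own mean over 6 arrays (colour, red higher and blue lower, scale ending at -1 and 1), with OVX arrays left of Cont arrays and genes grouped by role. The top 3 rows, Cxcl17, Cxcl16 and Cxcl14, are red on all OVX arrays and blue on all Cont arrays, and Cxcl13, Cxcl9, Ccl9, Ccl8 and Ccr2 are reddest on OVX 3.

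Members also varied between mice of 1 group. The widest SD within a group was that of Ccl8, at 0.75, followed by Cxcl13 at 0.72 and Ccl9 at 0.68, against standard errors of 0.13 to 0.39 for the changes of the members. Ccl8, a CC ligand paired here with Ccr8, read 4.37, 3.96 and 5.40 in OVX-SGs, against 3.45, 4.33 and 4.94 in Cont. In 12 members the arrays OVX 3 and Cont 3 were the highest of their groups. These were Ccl6, Ccl8, Ccl9, Ccl11, Ccl26, Ccl28, Cxcl9, Cxcl13, Ccr2, Cx3cr1, Cxcr3 and Xcl1. In 11 members OVX 2 and Cont 2 were the highest, and in 4 members OVX 1 and Cont 1. The share over all genes was not determined. OVX 3 and Cont 3 had the highest summed signal of the macrophage list, at 1181 and 958. They also had that of the dendritic cell list, at 952 and 796, and of the T and natural killer cell list, at 391 and 431. The lists of duct markers and of genes downstream of chemokine receptors were nearly level between arrays 3 and 1. The duct sum was 27105 on OVX 3 and 27100 on OVX 1, and 12775 on Cont 3 and 12771 on Cont 1. The downstream sum was 5771 on OVX 3 and 5750 on OVX 1, and 5205 on Cont 3 and 5193 on Cont 1. The part of these list genes in the spread between mice was not tested.

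The 3 risen ligands lie apart in the genome, with Cxcl17 on chromosome 7, Cxcl16 on chromosome 11 and Cxcl14 on chromosome 13. Of the 14 members on chromosome 11, which holds a cluster of CC ligands, Cxcl16 alone passed. The 11 members on chromosome 5, which include the Cxcr2 and Cxcr3 ligands, and the 13 on chromosome 9, all of them receptors or atypical receptors, gave 0 calls. The measured genes next to the risen ligands did not pass. Beside Cxcl16 these were Med11, with a change of 0.05, and Zmynd15, with -0.13. Beside Cxcl17 they were Lipe, with -0.16, and Ceacam1, with 0.20, and beside Cxcl14 they were Neurog1, with 0.31, and Slc25a48, with -0.53.

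Genes that act downstream of chemokine receptors gave a single call. Of 33 measured G protein, kinase and motility genes 0 rose and 1 fell, with a median of -0.04. The gene that fell was Stat3, a transcription factor that cytokine receptors activate, at 7.64, 7.31 and 7.33 in OVX-SGs and 7.98, 8.16 and 8.05 in Cont (change -0.64, standard error 0.14, limma adjusted p = 0.0339). With each array left out in turn Stat3 passed in 1 of 6 fits, that without OVX replicate 1, and had a limma adjusted p of up to 0.133, without OVX replicate 3. By the methods' t-test its adjusted p was 0.153. In 12 further genes of the field that the symbols did not take in, such as the macrophage migration inhibitory factor Mif, the CMTM family and the chemokine-cutting protease Dpp4, 0 passed, with a median of 0.02. Dpp4 had the smallest p of these, with a change of -0.53 (standard error 0.17, limma adjusted p = 0.146).

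Cell types that make or receive chemokines differed in how their markers stood. Of 12 fibroblast markers 4 rose and 0 fell, with a median of 0.29 and a summed linear signal of 2136 to 2364 in OVX-SGs and 1398 to 1591 in Cont. The count was 2 without any 1 of the OVX arrays and without Cont replicate 1 or Cont replicate 2. Col3a1, a fibrillar collagen, had the smallest p among them, with a change of 2.30 (standard error 0.37, limma adjusted p = 0.00502), but it did not pass when limma was run with the trend and robust settings (adjusted p = 0.0634) or by the methods' t-test (adjusted p = 0.241). Markers of endothelium (13 measured), of mast cells (10 measured) and of lymph node stroma and vessels (12 measured) gave 0 calls. In 14 genes of other tissue around the gland, 1 rose, the amylase Amy1, by 1.99 (standard error 0.27, limma adjusted p = 0.00173). The median of the 14 was -0.16, and at an unadjusted limma p under 0.05, 1 was higher and 3 were lower. The fat cell genes Fabp4 and Cidec changed by -1.14 and -0.73 and did not pass (limma adjusted p = 0.0637 and 0.0928). How much tissue from around the gland each sample held was not tested. These lists describe what stood beside the chemokine genes, and their part in the rise of Cxcl14, Cxcl16 and Cxcl17 was not tested.

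**Figure D5:**
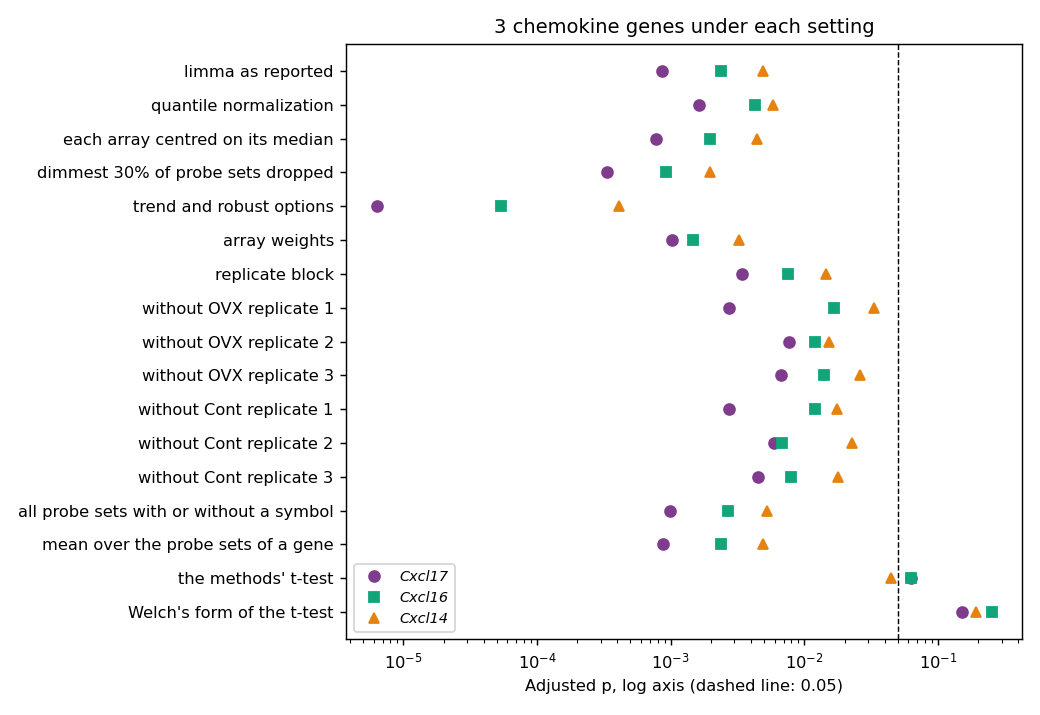
Adjusted p (x axis, log scale) of Cxcl17, Cxcl16 and Cxcl14 under each setting (rows), with a dashed line at 0.05. All 3 lie left of the line in each limma fit, while Cxcl16 and Cxcl17, at 0.063, lie right of it by the methods' t-test and all 3 do so in the lowest row, the form of that test with unequal variances.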

How the data were processed

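The authors extracted total RNA, hybridized it to Clariom S mouse arrays and deposited log2 intensities, normalized together by SST-RMA according to the methods. RMA and Affymetrix Power Tools stand in the submitters' processing notes, and no version is given in the sources used here. The log2 scale was read from the largest value, 13.06, and from array medians of 5.20 to 5.22. Groups came from the sample labels, which call the samples biological replicates, so p-values set the change against the spread between these mice. In limma the spread of each gene is drawn toward that of all genes. Its standard errors therefore do not follow from the SDs of a gene's own arrays alone.

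Of 22206 probe sets, the platform annotation gives a single symbol to 19572, several to 0 and none to 2634, which were left out. For 55 genes with several probe sets, among the members Ccl21b, the one with the highest mean was kept, which gave 19505 genes. The 2 groups were compared with limma 3.58.1 in R 4.3.3 (lmFit and eBayes, no covariate, two-sided, Benjamini-Hochberg adjustment over all named probe sets), and the procedure was tested on simulated data. Linear signal is 2 to the power of the log2 value. The methods name an independent t-test without its form, and the equal-variance form is called the methods' t-test here.

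Members, lists, pairs and tests were chosen with earlier results of these data known, and no list was tested as a set. All members could be named. Array values were given for those that passed, the 10 with the highest mean, the 10 with the largest absolute change and the receptor paired with a risen ligand. Further members were given in full where their arrays did not overlap between groups or varied most, and this choice was made after their values were seen. Alternatives were quantile normalization, median centring, dropping the dimmest 30% of probe sets, the trend and robust options, array weights, a replicate block, each array left out, unnamed probe sets included, the mean over probe sets, 2 t-tests and other fold thresholds. The duct and acinar sums without their leading genes, and the count of list genes by the t-tests, were added after seeing the data. Promoters of GRCm38.p6 were matched by Entrez gene identifier for 45 of the 60 genes and searched from RefSeq sequence. Protein sequences were not analysed here. No detection calls were used, so a dim signal cannot be told from background.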

Additional observations from a re-analysis of the deposited data

How the results depend on the processing

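The counts of 3 ligands higher and 0 members lower held under quantile normalization, median centring, the trend and robust options and array weights. By the methods' t-test the count of higher members was 1 (Cxcl14), by its Welch form 0, and at a fold of 2 or more and an unadjusted p of 0.05 or less it was 1 (Cxcl17), since the other 2 changes are under 2-fold. The labels do not say that the replicate numbers pair the mice. Over all named probe sets, deviations from the group mean on OVX and Cont arrays of the same number had correlations of 0.07, 0.01 and -0.04. These values cannot decide whether single genes were paired. With the replicate block the count was 3, with adjusted p of 0.0144 for Cxcl14, 0.00761 for Cxcl16 and 0.00343 for Cxcl17, and it changed no call of another member, while among list genes 3 no longer passed (Stat3, at 0.0622, Dcn and Lpo) and 5 others did (S100a9, at 0.0331, Chrm1, Cidec, Fabp4 and Bpifa2). Leaving out each array in turn kept 3 higher in all 6 fits, and gave 0 to 1 lower, Xcl1 without OVX replicate 3. At a fold of 1.5 or more and an unadjusted p of 0.05 or less, these fits gave 3 to 7 higher, with 5 without OVX replicate 1, 6 without OVX replicate 2 and 7 without Cont replicate 3, which added Cx3cr1 and Cxcl13 among others, and 0 to 1 lower (Xcl1, without OVX replicate 3 or Cont replicate 1). The median over these fits ran from 0.0070 to 0.0986 for all members, from 0.0063 to 0.1026 for ligands and from 0.0070 to 0.0852 for receptors with atypical receptors, which had -0.0427 with the dimmest 30% of probe sets dropped. Among genes near 0, the sign turned with array weights for Ccl11 (0.0287), Ccl25 (-0.0123) and Ccl6 (0.0184), and the range without 1 array was -0.1984 to 0.1154 for Ccl11, -0.0646 to 0.2133 for Ccl21a, -0.0985 to 0.1018 for Ccl25 and -0.2210 to 0.3405 for Ccl6. Over all marker and pathway lists the count of lower genes, 6, was 10 with the dimmest probe sets dropped, 11 with the trend and robust options and 3 to 5 without 1 array. By the methods' t-test 2 list genes were higher, where limma gave 15, and 1 was lower, and by its Welch form 0 were either. The cause of these shifts was not tested.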
